A study of Homo sapiens with 2 samples.

Results

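The genes described here are 10 genes known for intestinal epithelial identity: the transcription factor genes CDX1, CDX2, HNF4A, GATA6, KLF5 and ELF3, the keratin genes KRT8 and KRT18, the villin gene VIL1 and the adhesion gene EPCAM. They were chosen by name, as the rows of an ATF1 peak table assigned to one of these genes. All 10 had a row, among 15064 rows that each name a different gene. The series holds 1 chromatin immunoprecipitation (ChIP) library of HCT116 cells given ATF1 with a 3xFlag tag, precipitated with an antibody to the tag, and 1 input DNA library of HCT116 cells. HCT116 is an established human colon adenocarcinoma line. The data are the peaks listed for the ChIP library; no values of the input were analysed here. How the tagged ATF1 was introduced and how much of it the cells made are not stated in the labels. The peaks describe the tagged protein, and whether its level was that of natural ATF1 is not known. There was no replicate and no second condition: each value below describes this library, no p-value is given, and whether a gene was expressed was not measured, so the label of the gene set rests on general knowledge and not on these data.

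ATF1 belongs with CREB1 and CREM to the CREB family of basic leucine zipper proteins, which bind the cAMP response element, TGACGTCA, most often in promoters. In the gut epithelium, caudal-type homeobox factors, hepatocyte nuclear factors and GATA factors act together on genes of absorptive and secretory cells, while Krüppel-like and ETS factors act in crypt growth and epithelial differentiation. Simple epithelia carry intermediate filaments of paired keratins, and absorptive cells bear a brush border built on bundled actin.

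By fold enrichment, ATF1 peaks at the identity genes stood above between 12.4% (KRT8) and 78.4% (ELF3) of all listed peaks, while by tags CDX2 stood above 92.6% and GATA6 above 92.9%. Fold enrichment, the authors' ratio to a background that the file does not define, was between 4.26 (KRT8) and 10.43 (ELF3), with a median of 6.02 over the 10 genes, against a median of 6.97 over all 15064 peaks. Above that table median were 4 of the 10, namely ELF3, KLF5, VIL1 and KRT18 (49.9% of all peaks were). None reached the 90th percentile of fold enrichment, 14.87-fold, which 10.1% of all peaks did. The number of tags, the reads counted in a peak, separated the genes more widely. CDX2, GATA6, KLF5 and EPCAM had between 347 and 534 tags and lay above its upper quartile of 310 tags, whereas CDX1, HNF4A, VIL1 and ELF3 had between 39 and 58 and lay below its lower quartile of 60 tags. The median over the 10 genes was 126 tags, against 162 over all peaks.

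**Figure D1:**
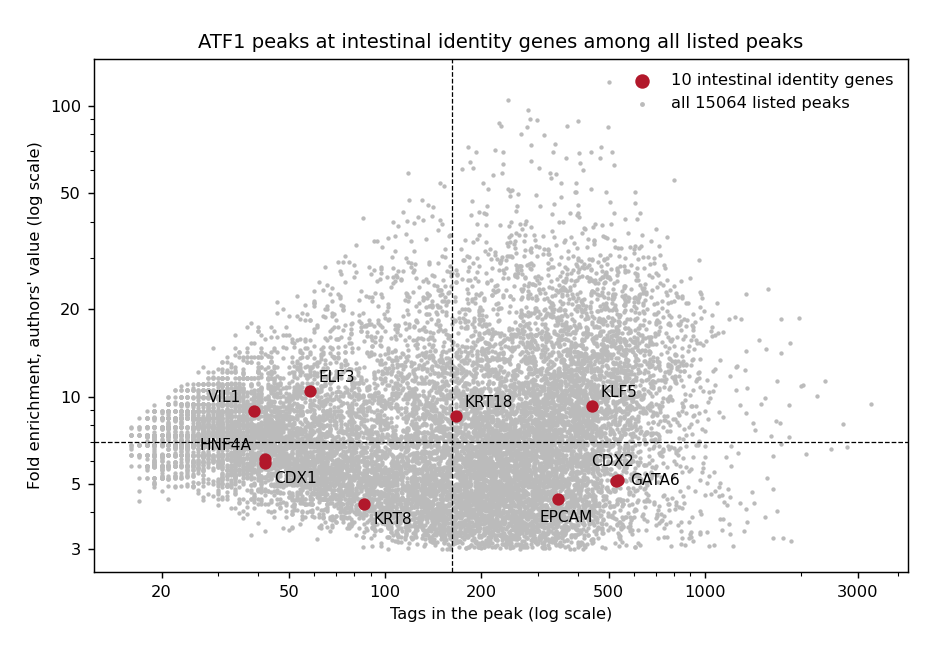
Fold enrichment (authors' value, log scale) against tags (log scale) for the peaks of the 10 identity genes, in red, and for all 15064 listed peaks, in grey, with dashed lines at the table medians of 162 tags and 6.97-fold. The 10 genes lie inside the grey cloud, none of them above 10.43-fold, with 4 peaks at 347 tags or more and 4 at 58 tags or fewer.

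The peaks of 7 of the 10 genes had their summit within 1 kb of an end of the gene. Among all protein-coding genes named in the table, the same held for 62.0%, and 48.0% of all 19974 protein-coding genes had any listed summit this close to an end. Since the 10 genes were taken from the names in the table, where 60.9% of protein-coding genes are named, the first of these shares is the closer comparison, and 7 of 10 is near it. HNF4A, KLF5 and VIL1 were the exceptions. Either end of a gene counted, so a gene-end peak need not lie at a start, and the KRT8 peak was at the 3′ end. By the authors' classes, 6 of the 10 peaks were exonic, 3 intronic (HNF4A, KRT8 and KRT18) and 1 upstream (ELF3), against 43.5%, 33.9% and 19.9% of all peaks. The table lists 1 peak for each gene name, so it does not show whether any of these genes had further peaks.

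**Figure D2:**
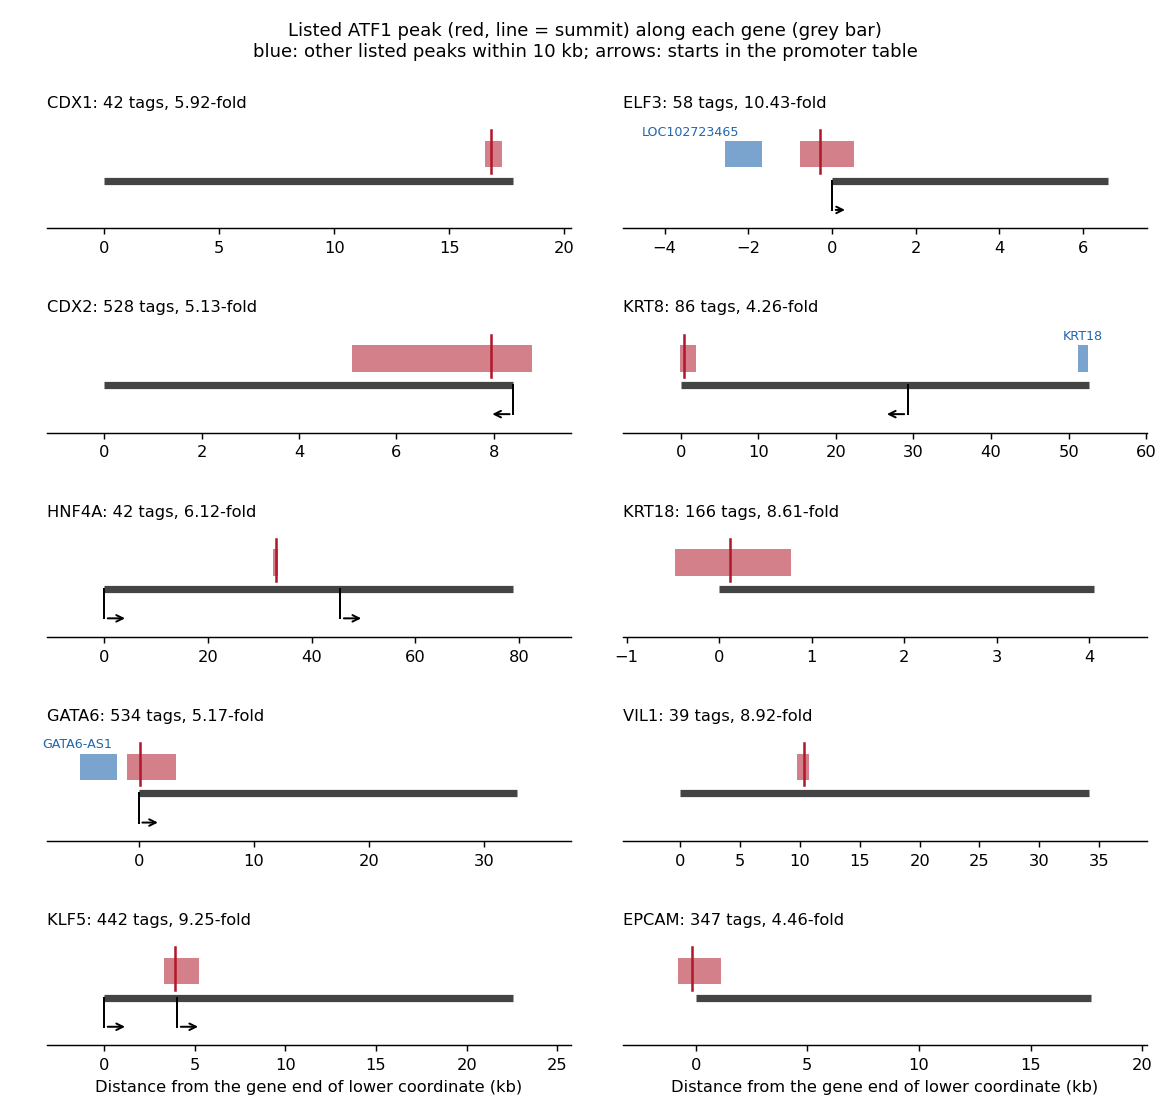
Position of the listed peak along each of the 10 genes, in kb from the gene end with the lower coordinate. The grey bar is the gene, the red block the peak with its summit as a line, blue blocks are other listed peaks within 10 kb, and arrows are the starts that the promoter table gives. Summits of CDX2, GATA6, ELF3, KRT8, KRT18, EPCAM and CDX1 lie within 1 kb of a gene end, inside or outside the gene. Those of HNF4A, VIL1 and KLF5 lie further inside, that of KLF5 119 bp from its second start.

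For 6 of the 10 genes (CDX2, HNF4A, GATA6, KLF5, ELF3 and KRT8) the RefSeq promoter table of GRCh38.p14 gave 8 starts, with strand. Of these 6 genes, 4 had a summit within 1 kb of a start: CDX2, GATA6, KLF5 and ELF3. All of the 6 except KRT8 are transcription factor genes, so the count does not set factor genes apart from the others. KRT18 and EPCAM, without a start there, had summits 114 and 162 bp from a gene end. Among all protein-coding genes of the promoter table the share was 50.4%. That share includes genes with no listed peak, whereas the 6 genes all have one by choice, so the comparison is not like with like. The promoters of these 4 genes are printed because each lies wholly under its gene's peak, and the promoter at the second HNF4A start is printed beside them as one with no listed summit within 5 kb that holds a motif described further on. Each runs 5′ to 3′ on the gene's strand, from 250 bases before the start, and capitals mark every match to the motifs described further on:
CDX2, chr13:27969266-27969565, minus strand: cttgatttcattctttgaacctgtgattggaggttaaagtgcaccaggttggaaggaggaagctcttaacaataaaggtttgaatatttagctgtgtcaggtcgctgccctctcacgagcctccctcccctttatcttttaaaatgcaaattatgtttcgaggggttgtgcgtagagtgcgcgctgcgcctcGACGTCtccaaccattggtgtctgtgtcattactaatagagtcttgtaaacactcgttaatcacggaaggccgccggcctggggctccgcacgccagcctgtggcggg
GATA6, chr18:22169339-22169638, plus strand: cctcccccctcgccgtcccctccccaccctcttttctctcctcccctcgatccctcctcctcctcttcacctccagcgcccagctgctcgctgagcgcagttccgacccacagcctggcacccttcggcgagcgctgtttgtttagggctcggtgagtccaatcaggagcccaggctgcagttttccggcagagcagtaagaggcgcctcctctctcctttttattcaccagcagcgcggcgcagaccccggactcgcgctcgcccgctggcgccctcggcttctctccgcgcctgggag
KLF5 second start, chr13:73058755-73059054, plus strand: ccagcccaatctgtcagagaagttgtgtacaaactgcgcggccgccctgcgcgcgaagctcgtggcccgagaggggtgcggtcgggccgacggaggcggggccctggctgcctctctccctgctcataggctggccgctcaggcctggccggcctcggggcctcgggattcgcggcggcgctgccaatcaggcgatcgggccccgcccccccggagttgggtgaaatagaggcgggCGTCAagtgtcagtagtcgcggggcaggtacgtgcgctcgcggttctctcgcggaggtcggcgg
ELF3, chr1:202010337-202010636, plus strand: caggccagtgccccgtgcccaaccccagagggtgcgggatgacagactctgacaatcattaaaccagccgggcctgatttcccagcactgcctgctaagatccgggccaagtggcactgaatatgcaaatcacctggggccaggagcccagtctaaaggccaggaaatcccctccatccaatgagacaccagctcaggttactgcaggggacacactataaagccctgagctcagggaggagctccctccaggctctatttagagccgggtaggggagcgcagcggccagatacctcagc
HNF4A second start, chr20:44400989-44401288, plus strand: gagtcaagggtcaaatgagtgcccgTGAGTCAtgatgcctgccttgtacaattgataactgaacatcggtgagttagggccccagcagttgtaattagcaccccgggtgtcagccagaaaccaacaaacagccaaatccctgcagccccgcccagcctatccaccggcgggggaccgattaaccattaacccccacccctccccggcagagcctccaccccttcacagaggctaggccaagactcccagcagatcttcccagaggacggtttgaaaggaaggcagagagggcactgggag

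CDX2, the caudal-type homeobox factor that sets intestinal fate, and GATA6, a zinc finger factor of endoderm and gut epithelium, had the broadest and most tag-rich peaks of the 10. The CDX2 peak (chr13:27966004-27969702, hg38) was exonic and held 528 tags over 3699 bp. The exact 95% Poisson interval of its tags was 483.9 to 575.0, which, like all such intervals here, covers counting error only. It was longer than 94.6% of all peaks and had more tags than 92.6%, but its enrichment of 5.13-fold was above only 24.3% of them. The summit lay 449 bp downstream of the CDX2 start, and the peak reached across 39.4% of the length of the gene.

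The GATA6 peak (chr18:22168592-22172844) was much alike, with 534 tags (interval 489.7 to 581.3) over 4253 bp and 5.17-fold enrichment, above 24.9% of all peaks. The tag counts of CDX2 and GATA6 lie within each other's intervals. By the authors' score, whose basis is not stated, they differed more, with 226.68 for CDX2 and 533.23 for GATA6, above 60.6% and 80.5% of all peaks. The GATA6 summit lay 75 bp downstream of the GATA6 start and 696 bp upstream of the start of GATA6-AS1, a long non-coding RNA gene on the opposite strand. The table gives GATA6-AS1 an intronic peak of its own, next to that of GATA6 and not overlapping it, with 226 tags and 4.68-fold enrichment and with summits 2417 bp apart.

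KLF5, a Krüppel-like factor of proliferating crypt cells, had the highest score of the 10, 708.94, above 86.1% of all peaks. Its exonic peak (chr13:73058295-73060222) held 442 tags (interval 401.7 to 485.2) at 9.25-fold enrichment, above 71.9% of peaks. With 229.3 tags per kb it was also the densest of the 10 peaks, above 92.6% of the table. KLF5 has 2 starts in the promoter table, and the peak was at the second: its summit lay 119 bp upstream of that start and 3910 bp downstream of the first. Measured from the outer ends of the gene alone, KLF5 therefore counted as having no gene-end peak, although its summit was closer to a start than that of CDX2 or ELF3.

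ELF3, an ETS-domain factor of epithelial cells, had the highest fold enrichment of the 10 with few tags. Its upstream peak (chr1:202009819-202011113) had 10.43-fold enrichment, above 78.4% of all peaks, on 58 tags (interval 44 to 75). Among upstream peaks alone it ranked lower, above 68.1%. The summit lay 284 bp upstream of the ELF3 start and 50 bp inside ELF3-AS1, a long non-coding RNA gene that starts in the opposite direction, so the peak covers the starts of both genes. A second listed peak, named for LOC102723465, had its summit 1944 bp away, within the span of ELF3-AS1 in the reference, and held 27 tags at 6.24-fold.

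CDX1, the paralog of CDX2, and HNF4A, a nuclear receptor of liver and gut, had peaks with few tags and low scores. The CDX1 peak (chr5:150183340-150184063) was exonic and 724 bp long, with 42 tags (interval 30.3 to 56.8) and 5.92-fold enrichment. Its summit lay 972 bp from the upper end of the gene, just inside the 1 kb limit, and 16808 bp from the lower end. The promoter table gives no start or strand for CDX1, so the upper end was not assigned as 5′ or 3′. The HNF4A peak (chr20:44388342-44389256) was intronic, also with 42 tags and with the same score, 59.37, at 6.12-fold. That score was above only 10.5% of all peaks, and 6 peaks of the table share it. HNF4A is known for a pair of alternative promoters, and the summit lay between the starts that the promoter table gives, 33109 bp downstream of the first and 12431 bp upstream of the second.

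The paralogs CDX1 and CDX2 were thus far apart in tags, with 42 and 528 and with intervals that do not overlap. Per kb of peak the gap was smaller, 58.0 tags for CDX1 and 142.7 for CDX2, and by fold enrichment the order turned round, 5.92 for CDX1 and 5.13 for CDX2. Intervals on fold enrichment cannot be given, because the background behind it is not in the file.

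KRT8 and KRT18 encode the partner keratins of simple epithelia and lie next to each other on chromosome 12, where the ends of the 2 genes overlap in the reference. The KRT18 peak (chr12:52948381-52949630) was intronic, with 166 tags (interval 141.7 to 193.3) and 8.61-fold enrichment, above 67.3% of all peaks. Its summit lay 114 bp from the lower end of KRT18 and 891 bp from the upper end of KRT8. The peak named for KRT8 (chr12:52897130-52899165) lay at the other end of that gene, 439 bp from its lower end and 51339 bp from the KRT18 summit. It held 86 tags (interval 68.8 to 106.2) and had the lowest enrichment of the 10, 4.26-fold, above 12.4% of all peaks. KRT8 is on the minus strand in the promoter table, so this peak was at its 3′ end, and the KRT18 peak was the one near its outermost 5′ end. The single KRT8 start in the promoter table, 28839 bp upstream of the KRT8 summit, lay between the peaks with no listed summit within 5 kb of it.

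VIL1 and EPCAM, the structural and adhesion genes, had peaks unlike each other in position and in tags. VIL1 encodes villin, an actin-bundling protein of brush border microvilli. Its exonic peak (chr2:218428850-218429855) had the fewest tags of the 10, 39 (interval 27.7 to 53.3), at 8.92-fold enrichment, above 69.1% of all peaks. The summit lay 10330 bp from the nearer end of the gene. EPCAM encodes an epithelial cell adhesion molecule. Its exonic peak (chr2:47368534-47370461) held 347 tags (interval 311.4 to 385.5), above 79.4% of all peaks, at 4.46-fold enrichment, above 14.7%. The summit was 162 bp outside the lower end of EPCAM in the reference, while in the authors' own gene coordinates it was 1 bp inside the gene.

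VIL1 and EPCAM show that the measures of strength can rank the same peaks in opposite order. By tags EPCAM stood above VIL1 and by fold enrichment below it, with score on the side of tags (328.6 for EPCAM and 92.22 for VIL1). Over the 10 genes, 4 were above the table median by fold enrichment, 5 by score, 5 by tags and 5 by tags per kb. KLF5 and KRT18 were above the median in all of these 4 measures, and CDX1, HNF4A and KRT8 in none.

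The promoters differed in CpG content, and those under peaks were not all CpG-rich. The second KLF5 start had 37 CpG dinucleotides in its 300 bases, more than 88.7% of all 34961 promoters, and the first KLF5 start, with no summit within 1 kb, had 4. GATA6 had 25 and CDX2 16. The promoter of ELF3, also under a peak, had only 7, fewer than the HNF4A starts with 11 and 9. The KRT8 start had 2. Across all promoters the median was 27 CpG in those with a listed summit within 1 kb of the start and 5 in those without one, so ELF3 was below the lower quartile of the first set, which was 20, as was CDX2.

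**Figure D3:**
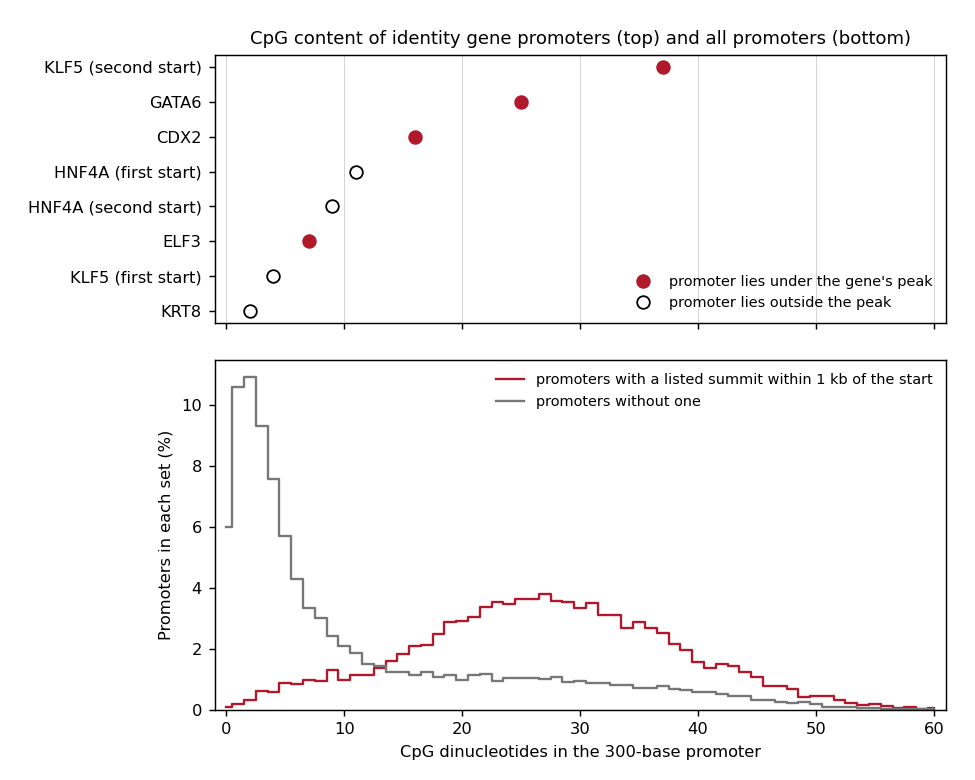
Top, CpG dinucleotides in the 300-base promoter at each of the 8 starts of 6 identity genes, filled where the promoter lies under the gene's listed peak and open where it does not; bottom, the distribution of the same count over all promoters, in percent of each set, split by whether a listed summit lies within 1 kb. Filled points run between 7 (ELF3) and 37 (KLF5, second start), and open points between 2 (KRT8) and 11 (HNF4A, first start).

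The full cAMP response element was not found in the identity gene promoters that could be read, which were those of 6 genes; CDX1, KRT18, VIL1 and EPCAM were not searched. The motifs were searched on both strands of the 300 bases, and no match says only that these letters are not in this window. TGACGTCA was in 0 of the 8 promoters, against 1.85% of all promoters, a share at which a count of 0 in so few promoters is no result about these genes. The inner GACGTC, which the full element contains, was in the CDX2 promoter, where its first base lies 58 bases before the start; 5.03% of all promoters hold it. The shorter TGACG, also contained in the full element, was in the promoter of the second KLF5 start, as its reverse complement CGTCA with its first base 14 bases before the start, against 24.5% of all promoters. The AP-1 motif TGANTCA, which other basic leucine zipper factors bind, was in the promoter of the second HNF4A start, as TGAGTCA with its first base 225 bases before the start, against 7.68% of all promoters. The promoters of GATA6 and ELF3, printed above without capitals, held none of these motifs. Over the whole promoter table TGACGTCA was in 3.49% of the 12148 promoters with a listed summit within 1 kb and in 0.982% of the 22813 without. The KLF5 summit lay inside the printed 300 bases, but those of GATA6, ELF3 and CDX2 lay 26, 34 and 400 bp outside, so the letters at those summits could not be read here.

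The surroundings of the 10 genes differed as well. Every listed peak is classed as exonic, intronic, upstream or downstream of a gene, and each names a different gene. Peaks far from genes are thus not in the list, and further peaks of a named gene are not shown. The part of gene spacing in the distances below was not tested. Among listed peaks KLF5 stood most alone. The nearest listed summit on the lower side was 273.3 kb from the gene, at DIS3, an RNA exosome nuclease gene (11.15-fold). On the upper side it was 1058.1 kb away, at KLF12, another Krüppel-like factor gene (4.30-fold). KRT8, KRT18, VIL1, EPCAM and HNF4A, like KLF5, had a neighbour with higher fold enrichment than each of the 10 genes. EIF4B, a translation initiation factor gene, had a summit 53.4 kb from KRT18 and 56.4 kb from KRT8 with 25.75-fold enrichment and 495 tags. CNOT9, of the CCR4-NOT deadenylase complex, had one 115.1 kb from VIL1 at 26.06-fold. CALM2, a calmodulin gene, had one 192.5 kb from EPCAM at 30.04-fold. CDX2 had weak neighbours on both sides, at LOC107984605 (4.91-fold, 140.2 kb) and downstream of the receptor kinase gene FLT3 (5.07-fold, 33.0 kb). CDX1 lay between the growth factor receptor gene PDGFRB (7.23-fold, 51.1 kb) and the transporter gene SLC6A7 (7.81-fold, 24.9 kb), and HNF4A between FITM2 (5.96-fold, 44.5 kb) and TTPAL (16.35-fold, 41.3 kb). The nearest listed summits to VIL1 on the lower side and to ELF3 and GATA6 on the upper side were at CTDSP1 (5.75-fold, 20.4 kb), LOC105371684 (10.00-fold, 90.2 kb) and LOC105372019 (4.98-fold, 146.1 kb). On the lower side of KRT8, the epidermal keratin gene KRT78 had a summit 48.3 kb away at 7.09-fold.

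Other genes of the intestinal epithelium were counted by role; the lists are small, and differences between roles were not tested. Of 74 such genes, 27 (36.5%) had a listed summit within 1 kb of an end, below the 48.0% of all protein-coding genes. Of the 74, 49 (66.2%) were named in the table, against 60.9% of all protein-coding genes. Their median was 6.04-fold, against 6.97-fold over all listed peaks. Since the 10 genes are by choice all named in the table and the 74 are not, the lists cannot be set against each other as like with like.

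**Figure D4:**
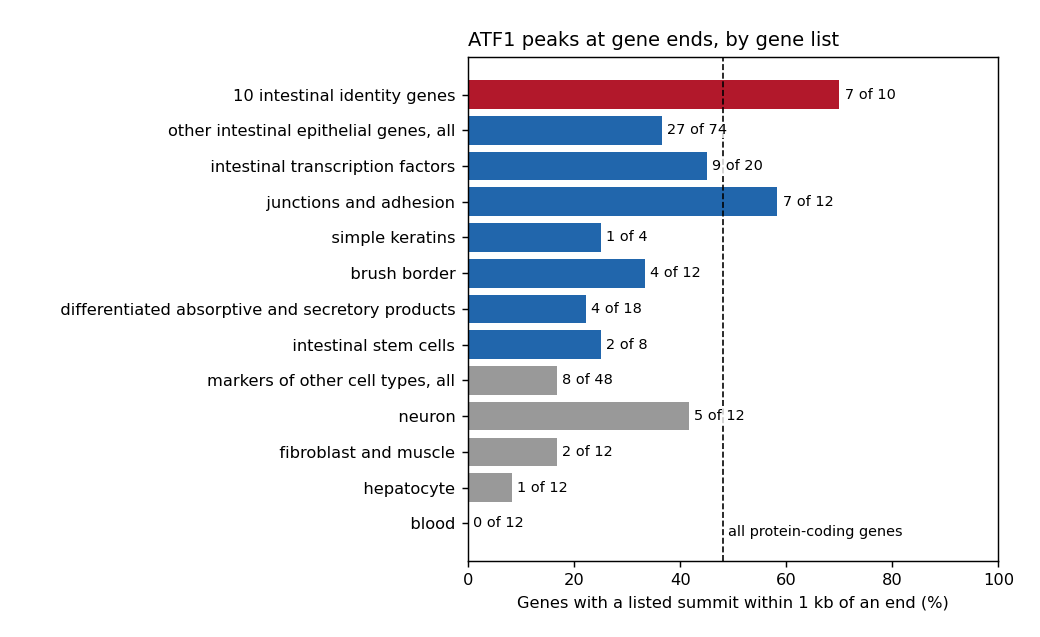
Percent of genes with a listed ATF1 summit within 1 kb of an end, for the 10 identity genes (red), other intestinal epithelial genes as a whole and by role (blue) and markers of other cell types (grey), with the numbers of genes beside the bars. The dashed line is the 48.0% of all protein-coding genes; junction genes (7 of 12) lie above it and the other roles below it.

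Junction and adhesion genes had a listed summit near an end at 7 of 12, against 48.0% of all protein-coding genes. F11R, which encodes the junctional adhesion molecule JAM-A, had 24.69-fold enrichment and 302 tags, the tight junction gene CLDN7 14.45-fold and 553 tags, and the desmosome gene DSP 7.81-fold and 54 tags. The DSP summit lay 910 bp from the upper end of the gene. F11R and CLDN7 had higher fold enrichment than each of the 10 identity genes. Of the list of other gut transcription factor genes, which also holds the splicing regulator gene ESRP2, 9 of 20 had one, led by ONECUT2 (9.0-fold, 543 tags), FOXA1 (8.09-fold, in a peak that the authors named for TTC6) and ASCL2, a factor of intestinal stem cells (7.49-fold, 594 tags). Those named in the table had a median of 5.29-fold.

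The 48.0% of all protein-coding genes with a summit near an end also stands beside the following counts. Of the brush border genes, 4 of 12 had one: the plastin gene PLS1 at 10.15-fold, the scaffold gene NHERF1 at 6.21-fold, in a peak named for LOC105371893, and CDHR5 and EPS8, tied at 3.88-fold. Like VIL1, 6 of the 10 brush border genes named in the table had no summit near an end. Among all protein-coding genes named there, 62.0% had their own summit this close. That share takes only a gene's own peak, whereas the brush border count takes any listed peak, as for NHERF1. Whether the lack of a summit near an end sets this small group apart was not tested. Of the products of differentiated absorptive and secretory cells, 4 of 18 had one, the goblet cell genes TFF3 (7.91-fold) and MUC2 (6.85-fold), CA2 (5.79-fold, in a peak named for CA3-AS1) and, weakest, ALPI (4.08-fold). The TFF3 peak, with 46 tags, was classed as downstream of the gene. Of these 18 genes 5 (27.8%) were named in the table, against 60.9% of all protein-coding genes, and CA2 was among the 13 not named. Intestinal stem cell genes had a summit near an end at 2 of 8, LGR5 (9.83-fold) and PROM1 (3.69-fold). Of the other simple keratin genes only KRT19 had one, of 4, at 4.28-fold and 171 tags, beside 4.26-fold and 86 tags for KRT8 and 8.61-fold and 166 tags for KRT18.

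Of the markers of other cell types, 8 of 48 (16.7%) had one, against 48.0% of all protein-coding genes. With a 5 kb window 24 had one, against 61.6% of all protein-coding genes. Where any overlap of a peak with the 1 kb window counted, 16 had one, against 53.9%. The 8 with a summit within 1 kb were 5 of 12 neuronal genes, 2 of 12 fibroblast and muscle genes, 1 of 12 hepatocyte genes and 0 of 12 blood genes. The strongest were at the hepatocyte gene TF (13.25-fold, in a peak named for TOPBP1) and the neuronal gene SYT1 (10.83-fold). The counts for the 10 identity genes, the other intestinal genes and these markers describe lists of different make-up, and promoter CpG content, which differs between peaks and non-peaks over the whole table as given above, was not matched between them. Its part in these counts was not tested.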

How the data were processed

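Per the labels' protocols, HCT116 cells were grown with 10% serum, fixed with 1% formaldehyde and sheared to 200 to 400 bp, and 5 µg of antibody was used. Per the submitters' processing notes, the tools were CASAVA, Bowtie2 and bedtools and the build hg38; which program called the peaks, against which control and with which gene models is not stated there. The authors deposited tags as raw counts of reads in each peak. Their deposited fold enrichment is a ratio with a lowest value of 3, and no deposited score is below 50; both were used only to rank peaks within this list. The depth of the libraries is unknown. 1 line without a position was left out.

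Genes and starts came from the RefSeq tables of GRCh38.p14, the assembly of hg38 (autosomes and X only, 19974 protein-coding genes; 34961 promoters of 300 bases). A gene-end or start-site peak had its summit within 1 kb. Either end of a gene counted, whether 5′ or 3′. Any listed peak counted, whichever gene it was named for. Percentiles are shares of all listed peaks with a lower value. Tags have exact 95% Poisson intervals.

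The 10 genes and all lists were chosen with earlier results of these data known. Named genes were the 10, the 3 strongest gene-end peaks of each role, peaks within 10 kb and the nearest listed peak on each side, of which 1 is not reported here; EPS8 (tied), ALPI and the markers TF and SYT1 were named after their values were seen. Distances and motif searches were tested on simulated data. Scripts ran in Python 3.11.15 with scipy 1.17.1 for intervals, pandas 2.3.3 and numpy 2.4.6.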

Additional observations from a re-analysis of the deposited data

How the results depend on the processing

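Counts of genes with a gene-end peak moved with the strength a peak had to have and, for the markers of other cell types, also with the window. With peaks of at least the median fold enrichment, 3 of the 10 identity genes had one (ELF3, and KRT8 and KRT18 through the KRT18 peak), 11 of the 74 other intestinal genes and 4 of the 48 markers of other cell types, and with the peaks from the 90th percentile up 0, 1 and 0; fewer peaks were used by construction. For all protein-coding genes these settings gave 27.9% and 8.01%. Other settings were a 500 bp or 5 kb window, any overlap, the authors' own assignment and peaks of at least 5-fold. With these the identity genes stayed between 6 and 8 of 10 and the other intestinal genes between 19 and 40 of 74. All protein-coding genes were at 41.3%, 61.6%, 53.9%, 37.8% and 38.5% in that order of settings, against 48.0% as reported. The shares of all protein-coding genes include genes with no listed peak, while the 10 genes are all named by choice. With the authors' own assignment, 7 of the 10 had one, beside 62.0% of the protein-coding genes named in the table. The markers of other cell types moved to 24 with the 5 kb window, 16 with any overlap and 5 with the authors' own assignment; the cause was not tested. Of the 10 identity genes, 4 were named for a peak of at least the median fold. Against gene-end peaks only, 2 of the 7 with such a peak were above the median fold. In place of 0 for the full cAMP response element, 1 of 6 genes had the inner GACGTC, 1 the shorter TGACG and 1 the AP-1 motif. Start-site counts stayed at 4 of 6 with 500 bp and 5 kb. No paired analysis was possible because there was 1 library. Since the read depth is unknown, a gene with no listed peak may still have been bound.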
